A study of Callithrix jacchus with 6 samples.

Results

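The 8 genes described here make, edit or carry heparan sulfate in the hippocampus of aged common marmosets (Callithrix jacchus): the sulfotransferases HS3ST2, HS3ST4, HS3ST5 and HS6ST3, the sulfatases SULF1 and SULF2, and the core proteins GPC5 and GPC6. They are 8 of the 29320 genes counted, and each symbol matched 1 row (ENSCJAG00000054677, ENSCJAG00000020752, ENSCJAG00000066508, ENSCJAG00000052214, ENSCJAG00000005003, ENSCJAG00000016568, ENSCJAG00000003211 and ENSCJAG00000003215, in the order just given). They were chosen by measured values, with earlier results of these data known: HS3ST5 and SULF2 were selected on their difference between sevoflurane and oxygen in glutamatergic neurons, and GPC6 on its difference in oligodendrocytes. Those differences are therefore given as a description with no test, and so are those of all 8 genes in these cell types.

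The study sampled hippocampi after 6 h of sevoflurane, an inhaled anaesthetic, in 3 libraries, and after 6 h of oxygen, the control, in 3 libraries. The series title places the study in aged animals. The labels give neither sex nor exact age, nor whether a replicate is an animal of its own, so each p-value measures only the spread between these libraries. Tissue was digested with collagenase, frozen as a cell suspension, and counted with 10x Genomics 3' chemistry, which reads 1 end of each transcript and tags each molecule with a unique molecular identifier (UMI).

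Heparan sulfate is a long sugar chain built on core proteins at the cell surface and in the matrix, where it binds growth factors, morphogens and synaptic adhesion proteins through patterns of sulfate groups. N-sulfation prepares the chain, O-sulfotransferases then add sulfates at fixed positions, and the secreted sulfatases SULF1 and SULF2 remove 6-O-sulfates from finished chains outside the cell. Glypicans (GPC genes) are core proteins held to the membrane by a lipid anchor, and in rodents glypicans released by astrocytes are known to promote the formation of excitatory synapses.

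The libraries held 7103 to 8577 barcodes and 41164947 to 47886816 UMIs. After removal of marked doublets 44344 of 46582 barcodes remained, in 34 clusters, of which 25 were named by marker genes as 12 classes. A class name stands for cells like that type by their markers. Between 13 and 27 barcodes were shared by any pair of libraries. Levels are CPM, UMI counts scaled to a common library total, summed over the cells of 1 library and class. In such sums, fewer expressing cells and less RNA per cell cannot be told apart. Sevoflurane replicate 3 stood apart from the other 5 libraries: the glutamatergic clusters 6, 7, 12, 18 and 19 held 1, 0, 6, 2 and 0 of its cells, whereas clusters 21 and 22 held 1139 and 1136, and 1006 of the 1149 cells of oligodendrocyte cluster 9 were its own. Cluster 10, led by DPP10, HS3ST4, KIAA1217 and SYNPO2, was the glutamatergic cluster with at least 20 cells in every library.

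HS3ST5 was lower in cluster 10 in every sevoflurane library than in any oxygen library. The gene encodes a 3-O-sulfotransferase, an enzyme of the last and rarest step of chain modification. Its level was 33.4, 31.0 and 33.9 CPM in sevoflurane replicates 1 to 3, from 26, 36 and 109 UMIs in 88, 107 and 384 cells. In oxygen replicates 1 to 3 it was 127.7, 168.1 and 92.2 CPM, from 425, 337 and 106 UMIs in 404, 207 and 141 cells. The sevoflurane libraries lay within 3 CPM of each other, while the oxygen libraries spread more widely and none came near them. The log2 fold change was -2.08 (SE 0.23), or 4.23 times lower. Sevoflurane replicate 3, with 384 cells, gave a level close to that of the smaller sevoflurane libraries.

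SULF2, which encodes an extracellular 6-O-sulfatase, was lower in the same cells. It stood at 52.6, 62.8 and 59.2 CPM in sevoflurane replicates 1 to 3 (41, 73 and 190 UMIs), against 124.4, 159.6 and 133.0 CPM in oxygen replicates 1 to 3 (414, 320 and 153 UMIs). The groups did not overlap, and the log2 fold change was -1.34 (SE 0.15), 2.54 times lower. In cluster 10 the difference was called for 0.659% of 10019 genes tested as lower (edgeR, adjusted p under 0.05) and the groups did not overlap in the lower direction for 6.89%; HS3ST5 and SULF2 are among both, as their choice from this contrast fixes.

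The share of cells with a UMI moved the same way when each cell was thinned to 1000 UMIs. For HS3ST5 it averaged 1.65% in sevoflurane and 12.5% in oxygen (21.4% and 49.4% without thinning), and for SULF2 5.95% and 11.8% (36.2% and 56.7% without thinning). Median UMIs per cell of cluster 10 were 8182 to 10268 in sevoflurane and 7542 to 9044 in oxygen, so cells were not shallower in sevoflurane. As a gauge of free RNA, the thinned share of HS3ST5 in endothelial cells, the class where its level was lowest, averaged 0.676% in sevoflurane and 0.836% in oxygen, at median depths of 2115 to 3130 and 2306 to 2519 UMIs. The share of SULF2 in astrocytes, its lowest class, averaged 3.64% in sevoflurane and 5.10% in oxygen, at 2415 to 3030 and 2301 to 2730 UMIs. The thinned HS3ST5 share in cluster 10 under sevoflurane (0.935% to 2.86% by library) was within about 1 percentage point of the endothelial share. The oxygen share was far above it. By level, sevoflurane cells of cluster 10 stayed above sevoflurane endothelial cells, with means of 32.8 and 6.24 CPM. Their unthinned shares were 21.4% and 1.85%, at unlike depths.

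Of the 12 marker lists of other cell types, 3 did not overlap between the groups in cluster 10. Astrocyte markers summed to 230 to 283 CPM in sevoflurane and 387 to 518 CPM in oxygen, with 5 to 8 and 8 of the 10 markers counted. GJB6 and SOX9 were at 0 in all 6 libraries. Endothelial markers summed to 19.2 to 35.2 CPM in sevoflurane and 36.5 to 42.4 CPM in oxygen, with CLDN5 at 0 throughout. Those of border-associated macrophages summed to at most 4.05 CPM in sevoflurane, with all 6 at 0 in replicates 1 and 2, and to 4.35 to 8.98 CPM in oxygen. Astrocytes themselves held 1.47 to 12.3 CPM of HS3ST5 in sevoflurane and 4.34 to 12.5 CPM in oxygen, and 14.1 to 53.1 CPM of SULF2 in sevoflurane and 43.3 to 53.8 CPM in oxygen, all below the oxygen levels of cluster 10. The part of these markers in the result was not tested. The glutamatergic markers summed to 1352 to 2203 CPM in sevoflurane and 1676 to 2124 CPM in oxygen.

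The other 6 genes of the set overlapped between the groups in cluster 10. HS3ST4, another 3-O-sulfotransferase and one of the genes that lead the cluster, had 4963, 4493 and 4492 CPM in sevoflurane and 5263, 5869 and 4464 CPM in oxygen (log2 -0.26, SE 0.15). HS3ST2, of the same enzyme family, had 80.8, 86.8 and 210.2 CPM in sevoflurane and 175.8, 201.0 and 150.4 CPM in oxygen. Sevoflurane replicate 3 was above every oxygen library for HS3ST2, and the other sevoflurane libraries were below all of them. GPC5 split the sevoflurane libraries most: 3380, 3479 and 327.6 CPM, against 989.4, 1970 and 1947 CPM in oxygen. The 6-O-sulfotransferase gene HS6ST3 had 191.2, 186.6 and 90.0 CPM in sevoflurane and 100.6, 117.2 and 120.0 CPM in oxygen, again with replicate 3 on the other side of the oxygen range from replicates 1 and 2.

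In 5 more glutamatergic clusters (6, 7, 12, 17 and 19) 3 oxygen and 2 sevoflurane libraries held at least 20 cells, sevoflurane replicate 3 not among them. With cluster 10, SULF2 was lower without overlap in 5 of the 6 clusters and higher without overlap in 1. Cluster 6 had 192.7 and 177.4 CPM of SULF2 in sevoflurane, against 263.6, 263.7 and 312.5 CPM in oxygen (log2 -0.66). Cluster 7, led by LAMA3 and CCDC85A and with the dentate granule cell gene PROX1 among its leading genes, had 29.7 and 29.5 CPM in sevoflurane, against 62.7, 81.6 and 68.0 CPM in oxygen (log2 -1.33). The log2 differences in clusters 12 and 19 were -0.46 and -0.92. Cluster 17 went the other way, with 172.5 and 175.4 CPM of SULF2 in sevoflurane (73 and 43 UMIs in 64 and 38 cells) and 47.7, 44.2 and 54.7 CPM in oxygen (log2 1.66). Over all genes tested in clusters 6, 7, 12, 17 and 19 the groups did not overlap in the lower direction for 10.7%, 9.9%, 11.5%, 16.8% and 10.4%, and in the higher direction for 20.1%, 23.6%, 18.2%, 25.2% and 12.8%.

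Within glutamatergic neurons, HS3ST5 was sparse outside cluster 10. Among the other glutamatergic clusters its highest oxygen level was 28.8 CPM, in cluster 22, and in clusters 6 and 7 it was at 4 CPM or less in every library. It was lower without overlap in 4 of the 5 clusters where it could be fitted, cluster 10 included. Over all genes tested in clusters 6, 7, 12, 17 and 10, 10.7%, 9.9%, 11.5%, 16.8% and 6.89% were lower without overlap. HS3ST5 averaged 3.00 and 2.25 CPM in clusters 6 and 7, below the 5.60 CPM of endothelial cells, its lowest class. The part of free RNA in the differences of clusters 6 and 7 was not tested. In cluster 17 it had 1 and 0 UMIs in the sevoflurane libraries, against 66, 116 and 60 UMIs (14.6, 26.0 and 19.2 CPM) in the oxygen libraries. In clusters 21 and 22, which hold most glutamatergic cells of sevoflurane replicate 3, its levels were 12.6 and 12.7 CPM in that library, 2.58 and 10.3 CPM in sevoflurane replicate 1, and 21.7 and 28.8 CPM in oxygen replicate 1, the 1 oxygen library with at least 20 cells there.

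GPC6, the core protein chosen for oligodendrocytes, was also lower in most glutamatergic clusters, although in the glutamatergic class as a whole the groups overlapped. Class levels were 136.7, 61.6 and 441.0 CPM in sevoflurane and 300.6, 273.2 and 213.5 CPM in oxygen. In the 6 clusters above, GPC6 was lower without overlap in 4, and all 6 fold changes were negative, between -1.78 and -0.02 on the log2 scale. Clusters 6 and 7, among those 4, averaged only 38.7 and 24.5 CPM, below the 133 CPM of microglia. The part of free RNA in their differences was not tested. In cluster 12 it had 243.7 and 188.3 CPM in sevoflurane, against 363.1, 291.8 and 427.7 CPM in oxygen (log2 -0.77). In cluster 17 it had 245.8 and 81.6 CPM in sevoflurane, against 539.4, 655.8 and 387.0 CPM in oxygen (log2 -1.78). These are clusters in which sevoflurane replicate 3 has hardly any cells. Where it has cells, in clusters 21 and 22, its GPC6 levels were 393.4 and 647.5 CPM, sevoflurane replicate 1 had 306.9 and 637.1 CPM, and oxygen replicate 1 had 701.8 and 931.7 CPM. In cluster 18, sevoflurane replicates 1 and 2 had 744.7 and 968.6 CPM, against 1149.5 and 1062.9 CPM in oxygen replicates 1 and 3. Of the 2682 glutamatergic cells of sevoflurane replicate 3, 1139 lie in cluster 21 and 1136 in cluster 22, where GPC6 is high in every library measured.

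**Figure D1:**
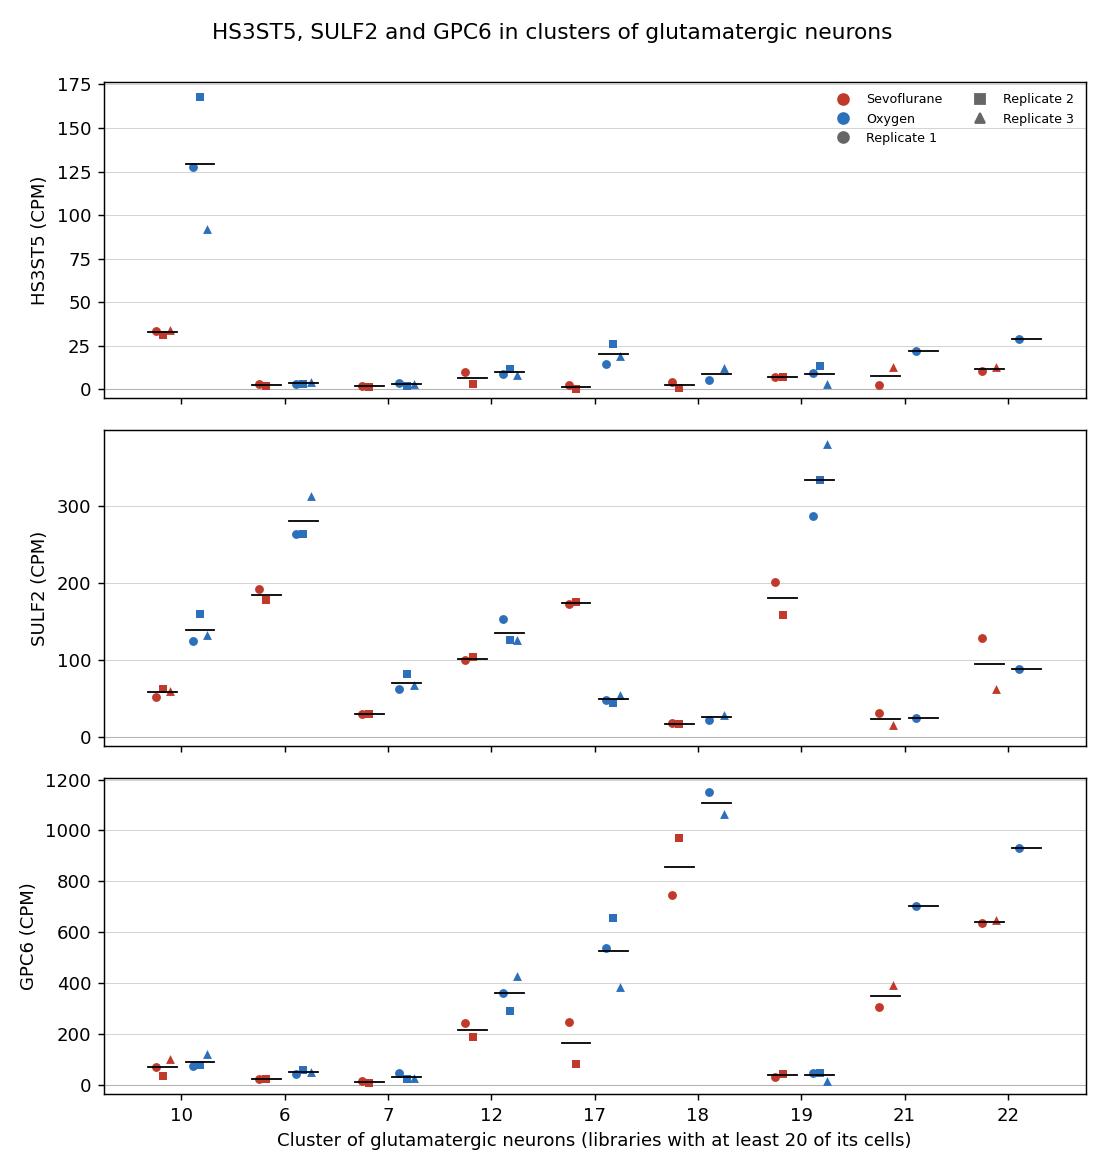
CPM of HS3ST5, SULF2 and GPC6 (vertical axes, linear) in each cluster of glutamatergic neurons (horizontal axis), for libraries with at least 20 cells in the cluster; points are libraries, bars are group means. HS3ST5 is highest in cluster 10, at 31.0 to 33.9 CPM in sevoflurane and 92.2 to 168.1 CPM in oxygen, SULF2 is lower in sevoflurane in clusters 10, 6, 7, 12 and 19 and higher in cluster 17, and GPC6 is lower in 6, 7, 12 and 17.

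Summed over all glutamatergic neurons, SULF2, SULF1 and GPC5 were lower in sevoflurane without overlap, where 4.1% of 17373 genes were lower without overlap. SULF2 had 96.9, 69.2 and 39.9 CPM in sevoflurane and 106.2, 139.7 and 139.9 CPM in oxygen. GPC5 had 240.6, 285.3 and 103.3 CPM in sevoflurane and 376.5, 520.1 and 391.2 CPM in oxygen (log2 -1.14, SE 0.37). Its thinned share in the class, 10.9% in sevoflurane and 19.9% in oxygen, was below the 13.3% and 21.4% of microglia. In cluster 10 alone that share was 59.5% and 49.6%. The part of free RNA in the class difference of GPC5 was not tested. SULF1 was near the low end of its range, at 7.97 to 8.65 CPM in sevoflurane and 8.65 to 12.9 CPM in oxygen, its nearest libraries being equal to the digits shown. The clusters behind these sums differ between libraries, as given above, and their part in the class differences was not tested.

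In oligodendrocytes GPC6 was lower in every sevoflurane library. Its level was 190.2, 180.2 and 202.7 CPM in sevoflurane replicates 1 to 3 and 367.5, 325.4 and 343.9 CPM in oxygen replicates 1 to 3. The means were 191 ± 11.3 CPM in sevoflurane and 346 ± 21.1 CPM in oxygen (SD, n = 3 each), the log2 fold change was -0.87 (SE 0.12), and the level was 1.83 times lower. Among 11667 genes tested in oligodendrocytes 5.98% were lower without overlap and 0.00857% were called lower by edgeR. GPC6, chosen from this contrast, is among the former and not among the latter.

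GPC6 also differed between the clusters of oligodendrocytes, which the libraries fill unequally. Cluster 5 had the higher level: 345.4, 255.0 and 385.0 CPM in sevoflurane and 505.8, 414.0 and 432.5 CPM in oxygen, without overlap. Cluster 4 had 101.0, 73.4 and 176.4 CPM in sevoflurane and 179.3, 169.3 and 171.9 CPM in oxygen, and there sevoflurane replicate 3, with 29 UMIs in 111 cells, lay inside the oxygen range. Cluster 5 held 476 of 1706, 566 of 1142 and 182 of 1299 oligodendrocytes of the sevoflurane libraries and 734 of 1504, 794 of 1414 and 597 of 1030 of the oxygen libraries. In cluster 9, sevoflurane replicate 3 had 170.4 CPM, and oxygen replicates 1 and 2 had 199.8 and 127.7 CPM from 35 and 12 UMIs. With clusters 4 and 5 alone, which every library holds, the GPC6 fold change was -0.64 on the log2 scale (SE 0.23), and the groups still did not overlap. There sevoflurane replicate 3 had 293 cells, against 1697 and 1133 in sevoflurane replicates 1 and 2. Its 176.4 and 385.0 CPM in clusters 4 and 5 were the highest of the sevoflurane libraries.

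The share of oligodendrocytes with a GPC6 UMI, at 1000 UMIs per cell, was 10.9%, 10.0% and 17.3% in sevoflurane and 22.1%, 20.5% and 19.5% in oxygen (exact 95% intervals of single libraries, which cover counting error only, lay between 8.30% and 19.5% in sevoflurane and between 17.1% and 24.4% in oxygen). Without thinning the groups overlapped: the share was 15.2%, 13.4% and 32.3% in sevoflurane and 32.0%, 32.5% and 30% in oxygen, with sevoflurane replicate 3 inside the oxygen range. Median UMIs per cell were 1552 to 2186 in sevoflurane and 1810 to 1911 in oxygen. Microglia, where GPC6 was lowest, had thinned shares of 10.2%, 3.60% and 11.8% in sevoflurane and 16.9%, 16.6% and 8.33% in oxygen, at median depths of 1469 to 2159 and 1645 to 2083 UMIs. Oligodendrocytes exceeded microglia in all 6 libraries, by less than 1 percentage point in sevoflurane replicate 1. Thinned shares averaged 8.53% in sevoflurane and 13.9% in oxygen microglia, against 12.7% and 20.7% in oligodendrocytes. Endothelial cells averaged 14.5% in sevoflurane and 12.4% in oxygen. The part of free RNA in the GPC6 difference of oligodendrocytes was not tested.

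In the same cells the oligodendrocyte markers summed to 11899 to 13964 CPM in sevoflurane and 12048 to 13461 CPM in oxygen, with 9 of 9 measured markers counted in each library. Markers of oligodendrocyte precursor cells (OPC), which carry much GPC6, summed to 272 to 369 CPM in sevoflurane and 354 to 381 CPM in oxygen, and fibroblast markers to 94 to 120 CPM and 102 to 105 CPM. Both ranges overlapped, and their part in the GPC6 difference was not tested.

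GPC5 was lower in oligodendrocytes as well, with 156.9, 92.8 and 143.4 CPM in sevoflurane and 230.2, 225.2 and 216.8 CPM in oxygen (log2 -0.79, SE 0.19). Its thinned share there, 11.8% in sevoflurane and 20.4% in oxygen, was below the 13.3% and 21.4% of microglia, and is not read as expression. Astrocytes, whose GPC5 level exceeds that of oligodendrocytes many times over, numbered 524 to 701 per sevoflurane library and 830 to 1319 per oxygen library. The part of free RNA in the GPC5 difference was not tested. The other 6 genes overlapped between the groups in oligodendrocytes. HS3ST5 had 22.6, 151.2 and 46.0 CPM in sevoflurane and 54.5, 111.4 and 141.6 CPM in oxygen, and over the 6 libraries it averaged 125.5 CPM in cluster 5 against 43.2 CPM in cluster 4.

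**Figure D2:**
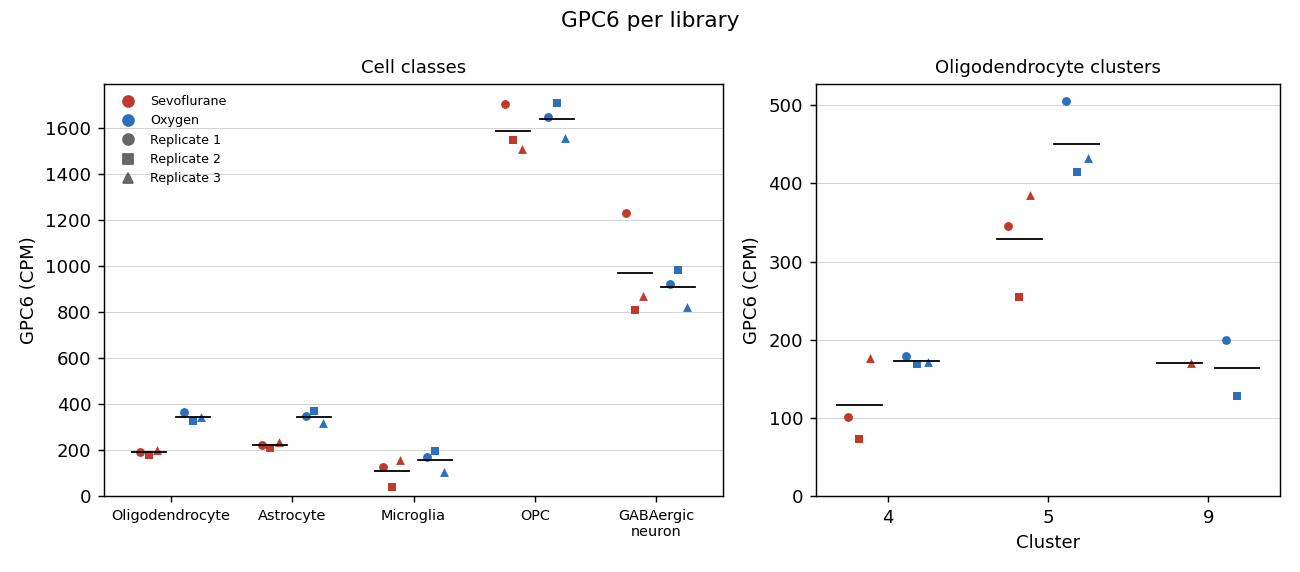
CPM of GPC6 (vertical axes, linear) by library in 5 classes (left) and in the 3 oligodendrocyte clusters (right, libraries with at least 20 cells in the cluster); points are libraries, bars are group means. The sevoflurane libraries lie at 180.2 to 202.7 CPM in oligodendrocytes and 210.7 to 235.5 CPM in astrocytes, below all oxygen libraries, while in microglia, OPC and GABAergic neurons the groups overlap.

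In the 5 classes that played no part in the choice of the genes, GABAergic neurons, OPC, astrocytes, microglia and endothelial cells, 33 combinations of gene and class passed the filter on low counts. None was called by edgeR's quasi-likelihood test at an adjusted p under 0.05, 4 had an unadjusted p under 0.05, and DESeq2 called 1. Over all genes, 0.114% were called in GABAergic neurons, 0.022% in OPC, 0.018% in astrocytes, 0.0913% in microglia and 0.0% in endothelial cells, where DESeq2 called 1 gene and 294 of 6617 had an unadjusted p under 0.05. The unadjusted p was under 0.05 for 11.4% of all genes in GABAergic neurons, 6.29% in OPC, 6.73% in astrocytes, 6.61% in microglia and 4.44% in endothelial cells. DESeq2 called 1.56% of all genes in GABAergic neurons, 0.143% in OPC, 0.342% in astrocytes, 0.235% in microglia and 0.0151% in endothelial cells. Of the 33 fold changes 23 were negative and 10 positive. The groups did not overlap in 4 combinations: GPC6 in astrocytes and HS6ST3 in OPC were lower, GPC5 in astrocytes and HS3ST2 in GABAergic neurons higher. Among all genes tested, the groups did not overlap, in either direction, for 18% in GABAergic neurons, 11.8% in OPC and 12.7% in astrocytes. For microglia and endothelial cells the shares were 12.3% and 10.5%. A count of 4 in 33 lies within the range of these shares.

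GPC6 in astrocytes had 223.7, 210.7 and 235.5 CPM in sevoflurane replicates 1 to 3, against 346.8, 369.3 and 319.8 CPM in oxygen replicates 1 to 3. All sevoflurane libraries were below all oxygen libraries, by more than the spread within either group. The log2 fold change was -0.63 (SE 0.12), 1.55 times lower, with an edgeR adjusted p of 0.317 over 11113 genes and a DESeq2 adjusted p of 0.0437. In astrocytes 6.54% of genes were lower without overlap and 6.15% higher. OPC markers in the same astrocytes summed to 1286 to 1539 CPM in sevoflurane and 1510 to 1700 CPM in oxygen, ranges that overlapped, and their part in the result was not tested. The thinned share of cells with a GPC6 UMI was 17.1% in sevoflurane and 25.1% in oxygen (31.2% and 45.0% without thinning; exact two-sided permutation test on thinned shares, p = 0.1, the smallest that 3 against 3 libraries allow). In microglia, where GPC6 was lowest, the thinned share averaged 8.53% in sevoflurane and 13.9% in oxygen. The part of free RNA in the GPC6 difference of astrocytes was not tested. Fold changes with their SE, side by side, were -0.87 (0.12) in oligodendrocytes, -0.63 (0.12) in astrocytes, -0.49 (0.39) in microglia, -0.07 (0.10) in OPC and 0.03 (0.17) in GABAergic neurons. Whether the response differs between these classes is not tested here, since the oligodendrocyte value chose the gene. Among these 5, the OPC and GABAergic classes have the most GPC6 and the fold changes nearest 0. This does not extend to the classes left out of the 5. Endothelial cells had a log2 fold change of 1.28. Fibroblasts, the class with the most GPC6, averaged 727 CPM in sevoflurane and 2726 CPM in oxygen.

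In endothelial cells GPC6 had 221.6, 849.5 and 215.2 CPM in sevoflurane and 172.3, 266.4 and 141.7 CPM in oxygen. The high value is from sevoflurane replicate 2, with 53 endothelial cells, and the adjusted p was 1.00 (edgeR). Fibroblasts, left out of the comparison because sevoflurane replicate 2 had 13 of them, held 902.9 and 550.6 CPM of GPC6 in sevoflurane replicates 1 and 3 (222 and 90 UMIs in 86 and 51 cells), against 3637, 2506 and 2036 CPM in oxygen (1468, 312 and 316 UMIs in 168, 47 and 68 cells). The fibroblast groups did not overlap, on 2 against 3 libraries, and the share of all genes without overlap was not computed for fibroblasts. In the glutamatergic clusters compared on 2 against 3 libraries, 9.9% to 16.8% of genes were lower without overlap.

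GPC5, the glypican that marks astrocytes most strongly in these data, had 7455, 7060 and 6803 CPM in sevoflurane astrocytes and 6299, 6142 and 6153 CPM in oxygen astrocytes. The log2 fold change was 0.20 (SE 0.10), with an edgeR adjusted p of 0.788, although every sevoflurane library was above every oxygen library. In OPC it had 5009, 5381 and 5178 CPM in sevoflurane and 5496, 4603 and 4797 CPM in oxygen, and the groups overlapped.

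Among the sulfotransferases, HS3ST2 in GABAergic neurons had 54.1, 44.6 and 64.6 CPM in sevoflurane, against 28.6, 43.0 and 20.8 CPM in oxygen (log2 0.76, SE 0.25, edgeR adjusted p 0.282), where 12.8% of 13113 genes were higher without overlap. Sevoflurane replicate 2 and oxygen replicate 2 are less than 2 CPM apart, and the share of cells with an HS3ST2 UMI overlapped at 1000 UMIs per cell (3.61% to 6.01% in sevoflurane and 1.74% to 5.06% in oxygen). Without thinning it did not overlap, at 23.9% to 25.5% in sevoflurane and 10.4% to 17.8% in oxygen. HS6ST3 in OPC had 88.7, 72.5 and 93.6 CPM in sevoflurane, against 152.4, 104.7 and 115.4 CPM in oxygen (log2 -0.57, SE 0.18, edgeR adjusted p 0.551), where 4.94% of 9101 genes were lower without overlap. Its thinned share was 7.07% in sevoflurane and 11.1% in oxygen (18.0% and 25.1% without thinning, exact permutation p = 0.1), against 2.24% and 2.59% in astrocytes, where HS6ST3 was lowest.

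HS3ST5 in GABAergic neurons, a class with far more of it than the glutamatergic class, had 93.3, 79.2 and 99.4 CPM in sevoflurane and 112.5, 93.2 and 108.8 CPM in oxygen. The groups overlapped (log2 -0.27, SE 0.13, edgeR adjusted p 0.468). SULF2 in OPC had 405.4, 487.5 and 558.6 CPM in sevoflurane and 456.0, 611.8 and 589.5 CPM in oxygen, with an edgeR adjusted p of 0.923. In microglia SULF2 had 402.0, 407.3 and 248.2 CPM in sevoflurane and 294.3, 476.3 and 474.8 CPM in oxygen, with an adjusted p of 0.958. In both classes, where SULF2 is most abundant, the groups overlapped and the fold changes (log2 -0.22 and -0.19) were within 1.5 times their SE. HS3ST4 and SULF1 overlapped between the groups in all 5 classes.

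**Figure D3:**
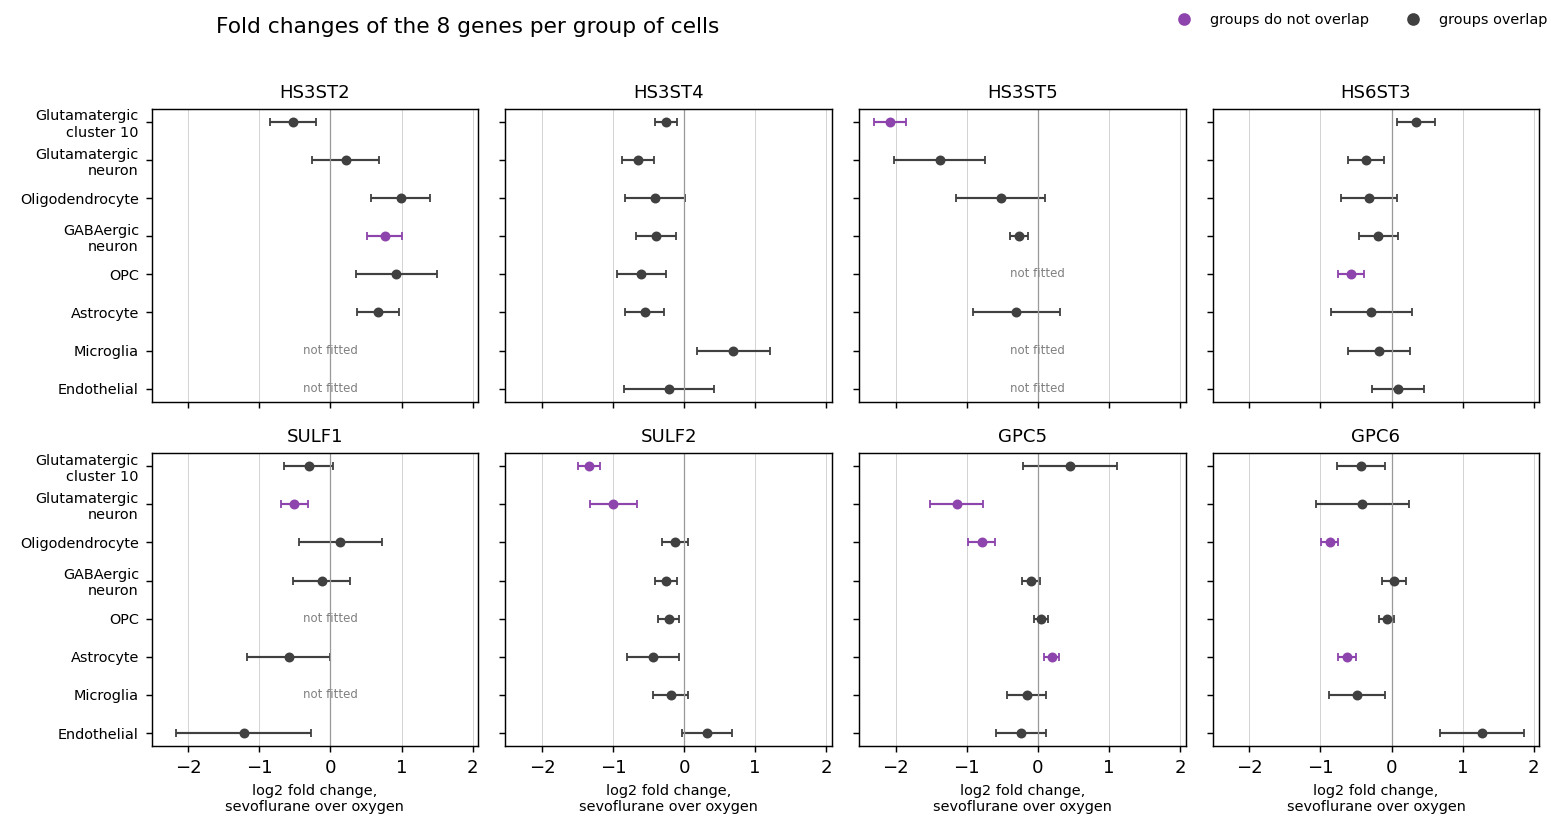
Log2 fold change of sevoflurane over oxygen (horizontal axes) for the 8 genes in each group of cells (vertical axes), with bars of 1 SE from edgeR; purple points mark genes whose 3 sevoflurane and 3 oxygen libraries do not overlap, grey points those that do. HS3ST5 and SULF2 in cluster 10 lie at -2.08 and -1.34, GPC6 in oligodendrocytes at -0.87 and in astrocytes at -0.63, and most other values lie within 1 of 0.

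The 8 genes had different homes among the cell types, given here as mean CPM ± SD over libraries with at least 20 cells of a class, with no test because the classes were built from the same cells. These are counts of transcript ends, so levels are compared between classes and not between genes. The classes with at least 3 such libraries number 10, and a class called highest or lowest, here or above, is so among these 10. Choroid plexus cells came almost wholly from sevoflurane replicate 1 and are not ranked. That library had 95.9 CPM of GPC6, 56.8 CPM of HS3ST4, 21.4 CPM of HS6ST3 and 1.83 CPM of HS3ST5 in them. Each is below the lowest ranked class for that gene.

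Of the 3-O-sulfotransferases, HS3ST4 was the most restricted to glutamatergic neurons, at 1058 ± 289 CPM (n = 6), against 295 ± 115 CPM in mural cells (n = 4) and 264 ± 170 CPM in microglia, its next classes. The range of glutamatergic neurons did not overlap that of mural cells. The lowest of the 10 class means was 90.3 CPM, in ependymal cells. The part of free RNA in the HS3ST4 counts of the lower classes was not tested. Within glutamatergic neurons it ranged widely: cluster 10 averaged 4924 ± 564 CPM (n = 6), clusters 6 and 19 stood between 1070 and 2642 CPM, and cluster 7 between 31.8 and 73.6 CPM.

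HS3ST2 was also highest in glutamatergic neurons, at 77.6 ± 40.2 CPM (n = 6), followed by GABAergic neurons at 42.6 ± 16.1 CPM, and their ranges overlapped. Sevoflurane replicate 3 lay above the other 5 libraries, at 153.5 CPM. HS3ST5 had another distribution, with fibroblasts at 122 ± 47.5 CPM (n = 5), GABAergic neurons at 97.7 ± 12.1 CPM and oligodendrocytes at 87.9 ± 54.0 CPM (n = 6 each). These 3 do not differ beyond their spread. Its level in the whole glutamatergic class was 14.1 ± 9.04 CPM, near that of microglia at 11.9 ± 10.1 CPM. Among GABAergic clusters HS3ST5 averaged 127.0 CPM in cluster 3 and 47.9 CPM in cluster 15.

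HS6ST3, the 6-O-sulfotransferase gene of the set, was highest in glutamatergic neurons at 208 ± 49.7 CPM, then in OPC at 105 ± 27.6 CPM (n = 6 each) and fibroblasts at 92.3 ± 36.3 CPM (n = 5). The ranges of glutamatergic neurons and OPC overlapped. HS6ST3 is among the leading genes of cluster 17, where it stood at 234.0 to 691.0 CPM in oxygen.

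The sulfatases were highest in different classes. SULF1 was highest in fibroblasts and mural cells, at 201 ± 149 CPM (n = 5) and 157 ± 92.0 CPM (n = 4), with 1454 CPM in the choroid plexus cells of sevoflurane replicate 1, and it was at 10 CPM or less on average in microglia, OPC, oligodendrocytes and glutamatergic neurons. SULF2 was at 518 ± 81.2 CPM in OPC and 384 ± 94.0 CPM in microglia (n = 6 each, overlapping), then 135 ± 6.55 CPM in ependymal cells (n = 5). Astrocytes had the least SULF2, 43.3 ± 15.1 CPM.

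Of the glypicans, GPC5 averaged 6652 ± 542 CPM in astrocytes and 5077 ± 342 CPM in OPC (n = 6 each), ranges that did not overlap, and 3105 ± 2012 CPM in mural cells (n = 4). Its lowest class was oligodendrocytes at 178 ± 55.4 CPM, so GPC5 separates OPC from oligodendrocytes, the mature cells of the same lineage. GPC6 averaged 1927 ± 1246 CPM in fibroblasts (n = 5), 1613 ± 87.0 CPM in OPC and 940 ± 156 CPM in GABAergic neurons (n = 6 each), and the fibroblast and OPC ranges overlapped. It was lowest in microglia at 133 ± 54.9 CPM. Among GABAergic clusters, cluster 11 averaged 1960 CPM and cluster 3 228 CPM of GPC6, while GPC5 was highest in cluster 16, at 1564 CPM.

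**Figure D4:**
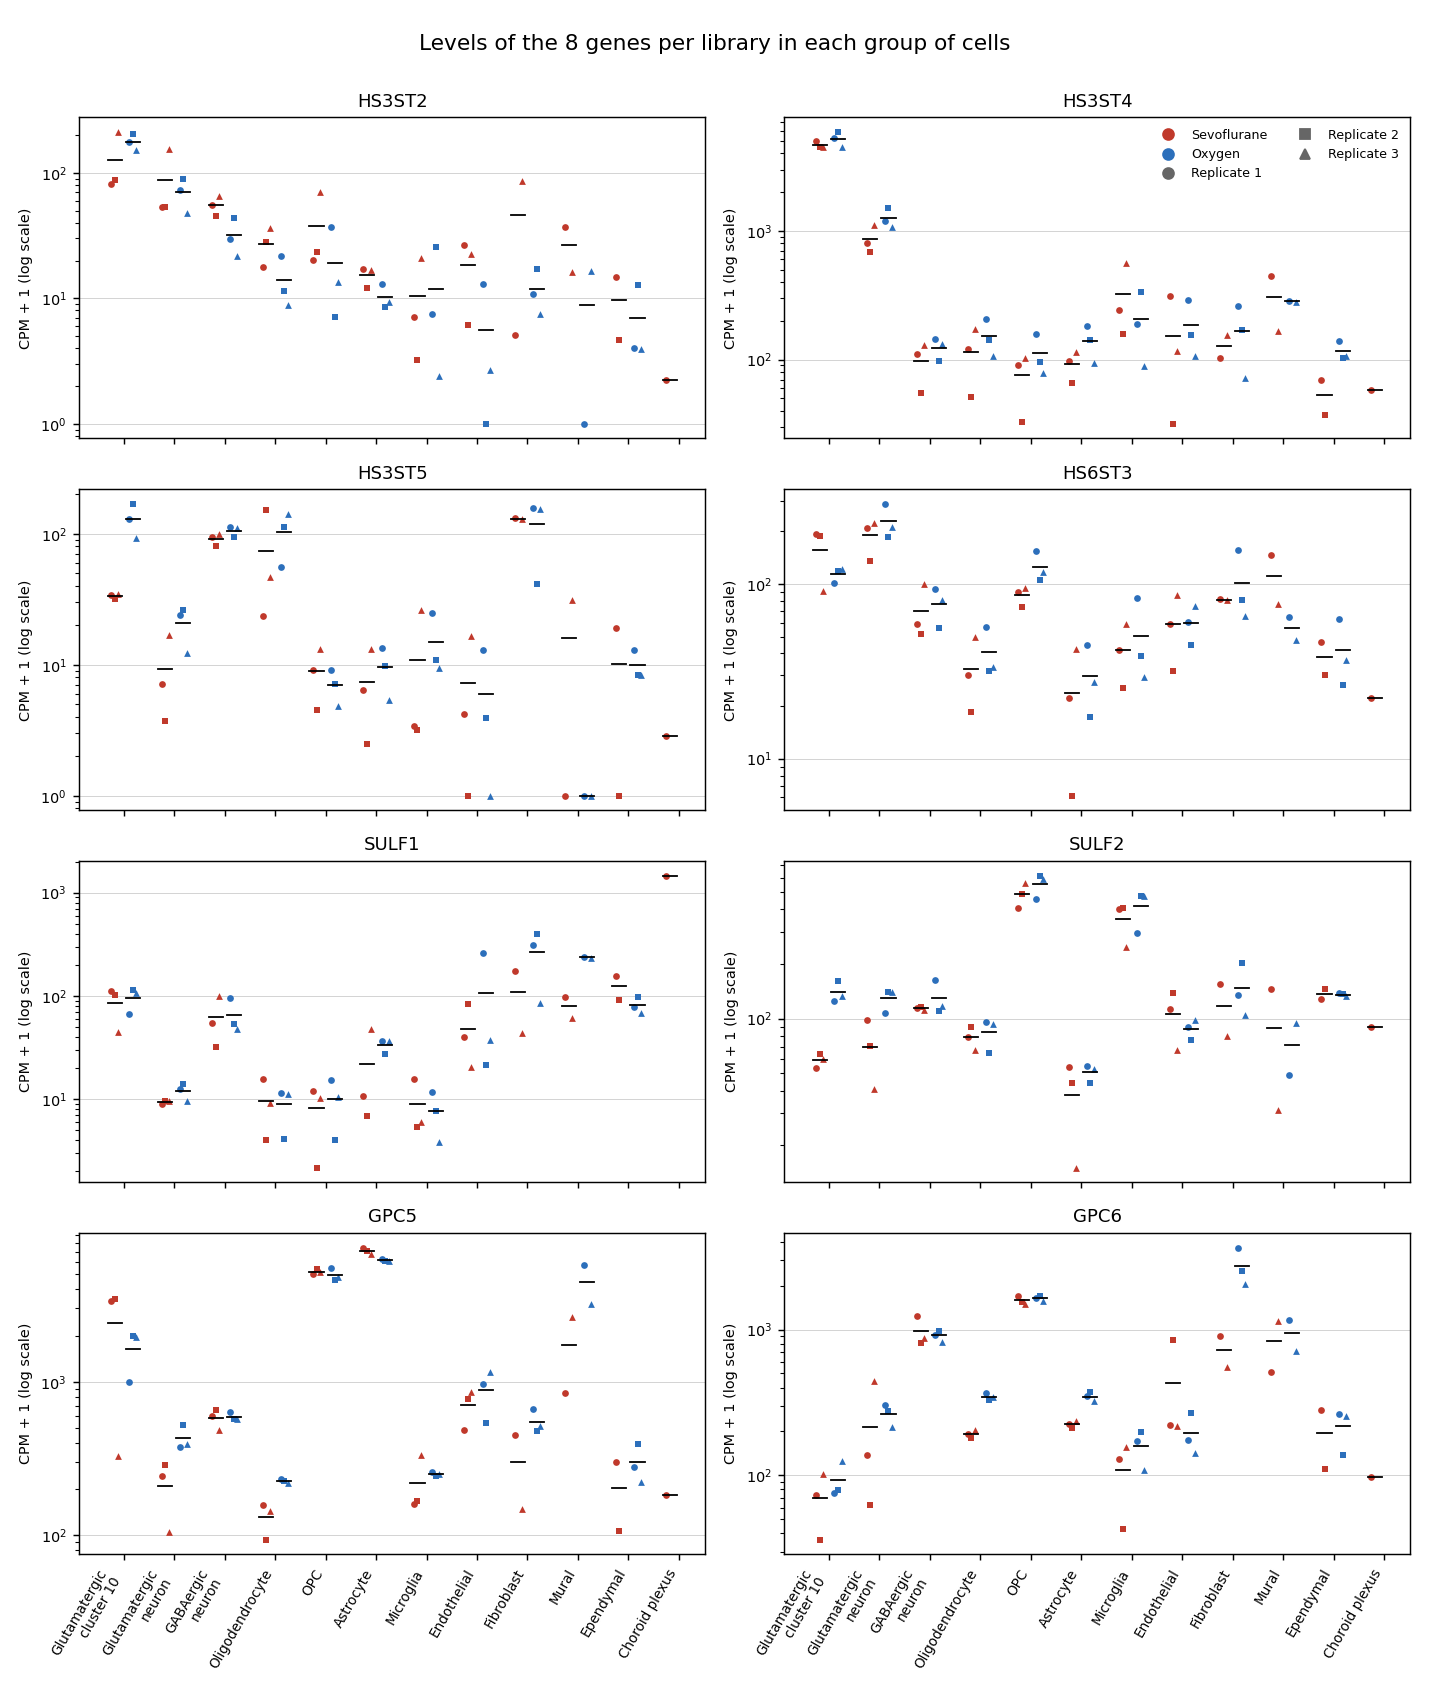
CPM + 1 on a log axis (vertical) for each of the 8 genes in cluster 10 and 11 classes of cells (horizontal axes); each point is 1 library with at least 20 cells of the class, and bars are group means. GPC5 peaks in astrocytes and OPC (means of 6652 and 5077 CPM), SULF2 in OPC and microglia, HS3ST4 in cluster 10 and glutamatergic neurons, and SULF1 in choroid plexus cells of 1 library, fibroblasts and mural cells.

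By correlation of log2(mean CPM + 1) over the 10 classes, among 7404 genes with at least 50 CPM in a class, the gene most like HS3ST2 was DRP2 (Pearson r 0.985), that most like HS3ST4 was CRACDL (r 0.965) and that most like HS6ST3 was SPHKAP (r 0.929). HS3ST4 was followed by NRGN and NELL2, and HS3ST5 by a gene without a symbol and then ZNF536 (r 0.897). SULF1 was most like GULP1 (r 0.963), and SULF2 most like TRIM24 (r 0.881). GPC5 was most like NT5E (r 0.955) and GPC6 most like GSTA4 (r 0.920). These are descriptions over 10 points that share libraries.

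The rest of the pathway was read from 8 lists of 68 genes on heparan sulfate, the 8 genes included, of which 67 were counted. The 8 genes are left out of the counts that follow, since their values chose them. None of the other 60 was called by edgeR in any of the 7 classes, and DESeq2 called 4 over the classes (GPC3, LRRTM3 and NDST3 in GABAergic neurons and SDC3 in glutamatergic neurons, named after their values were seen). Over all genes edgeR called 0.0171% in oligodendrocytes and 0.00576% in glutamatergic neurons and DESeq2 0.309% and 1.15%, and the shares in the other 5 classes are given above. Counts at an unadjusted edgeR p under 0.05 were 9 of 47 tested in GABAergic neurons, 2 of 36 in OPC, 5 of 40 in astrocytes, 2 of 29 in endothelial cells, 3 of 23 in microglia, 1 of 39 in oligodendrocytes (7.7% of all genes) and 4 of 56 in glutamatergic neurons (7.68% of all genes). List medians were -0.16 on the log2 scale in GABAergic neurons (36 of 47 negative), -0.11 in OPC (26 of 36), -0.16 in astrocytes (26 of 40), -0.04 in microglia (12 of 23), -0.07 in oligodendrocytes (22 of 39), -0.12 in glutamatergic neurons (35 of 56) and 0.06 in endothelial cells (11 of 29), beside medians of all genes between 0.00 and 0.03. A list of 22 chondroitin sulfate genes, a related sugar chain, had medians between -0.20 and 0.14 in the same classes.

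In cluster 10, EXT1, which encodes 1 of the polymerases that extend the chain, had 288.7, 315.5 and 433.1 CPM in sevoflurane and 568.1, 815.9 and 605.2 CPM in oxygen (log2 -1.03, SE 0.20). GLCE, the epimerase that converts glucuronic to iduronic acid in the chain, had 52.6, 55.0 and 52.9 CPM in sevoflurane and 80.2, 68.8 and 80.9 CPM in oxygen (log2 -0.61, SE 0.14). Neither EXT1 nor GLCE overlapped between the groups there, and edgeR called neither, while DESeq2, with 2.62% of all genes called in cluster 10, called EXT1. HS2ST1, the 2-O-sulfotransferase, was higher without overlap by 0.13 (SE 0.12) on the log2 scale, and the core protein gene SPOCK1 by 0.19 (SE 0.14), where 14.3% of all genes tested were higher without overlap.

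Of the enzymes that begin sulfation, NDST3 in GABAergic neurons had 170.8, 113.8 and 127.0 CPM in sevoflurane and 213.8, 215.4 and 213.9 CPM in oxygen, without overlap (log2 -0.70, SE 0.15, edgeR adjusted p 0.132). Of 13113 genes tested in GABAergic neurons, 686 were lower without overlap. NDST4 in the same neurons had 91.7, 55.5 and 62.2 CPM in sevoflurane and 101.5, 118.4 and 92.7 CPM in oxygen (log2 -0.64, SE 0.19, edgeR adjusted p 0.244). In astrocytes NDST3 had 81.8, 46.2 and 61.5 CPM in sevoflurane and 108.1, 88.3 and 87.0 CPM in oxygen (edgeR adjusted p 0.675). The fold change of NDST3 was negative in all 7 classes and in cluster 10, and edgeR called it in none, while DESeq2 called it in GABAergic neurons. The synaptic heparan sulfate receptor LRRTM4 had means of 4524 CPM in sevoflurane and 3573 CPM in oxygen OPC, higher without overlap (log2 0.32, SE 0.11, edgeR adjusted p 0.612). Of 9101 genes tested in OPC, 620 were higher without overlap.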

How the data were processed

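The authors deposited raw, unnormalised UMI counts for each gene in each barcode. Counting was done with Cell Ranger 6.1.1, per the file headers. Base calling with CASAVA 1.8 and the use of Seurat are from the submitters' processing notes. No genome build or annotation is stated in the labels or headers read here. Of 29320 features 15188 carried a symbol in the deposited files and 1379 took one from a gene name table.

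Barcodes with at least 500 UMIs and 200 genes were kept, which all met. Doublets were scored with scrublet in scanpy 1.11.5, and 1 threshold, 0.190 (the median over the 6 libraries), was used throughout because that of sevoflurane replicate 2 marked 0.150% of its barcodes. Leiden clustering at resolution 1 used 2000 variable genes, 30 components and 15 neighbours, with no batch integration. Clusters were named by marker lists, with 9 clusters (2834 cells, 3.40% to 9.43% per library) left unnamed. Names were rebuilt here and may differ from the study's own.

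Counts were summed per library and class. Classes with at least 20 cells in each library were compared by edgeR 4.0.16 (quasi-likelihood F test, filterByExpr, TMM, Benjamini-Hochberg over all genes tested, adjusted p under 0.05), and DESeq2 1.42.0 served as an alternative. Fold changes and SE are from edgeR. Shares of cells with a UMI were taken after each cell was thinned to 1000 UMIs, with exact Clopper-Pearson 95% intervals, and compared by an exact two-sided permutation test over 20 arrangements. The scripts were tested on simulated data.

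The genes, the lists and the tests were chosen with earlier results of these data known. All 8 genes are named in each compared class where values are described. A list gene is named where it is called or is among the 2 of its list with the highest mean CPM in a class. As genes like a member, the 3 of highest Pearson correlation were taken. COL18A1 and CHST14 were not counted. Alternatives were size factors of DESeq2 type in edgeR, no filter on low counts, DESeq2, a replicate block, each library left out, doublets kept, resolution 0.5, clustering without heparan sulfate genes and unthinned shares. Single glutamatergic clusters in place of cluster 10, and oligodendrocyte clusters held by every library, were added after the data were seen.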

Additional observations from a re-analysis of the deposited data

Results flagged for a closer look

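Genes are listed here because their sevoflurane and oxygen libraries did not overlap in one direction in some cells and did not overlap in the opposite direction in others. The difference between those cells was not tested, and all values are log2 fold changes of sevoflurane over oxygen. In clusters 6, 7, 12, 17 and 19 of the glutamatergic neurons the values rest on 2 sevoflurane libraries, without replicate 3.

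SULF2 was 1.66 in cluster 17, against -1.34 in cluster 10, -0.66 in cluster 6, -1.33 in cluster 7, -0.46 in cluster 12 and -0.92 in cluster 19. Cluster 17 held 64 and 38 cells in the sevoflurane libraries and 462, 509 and 355 in the oxygen libraries. In the same cluster HS3ST4 was 1.41, while in cluster 7 it was -0.80. HS3ST4 averaged 56.9 CPM in cluster 7, below the 90.3 CPM of ependymal cells, its lowest class. The part of free RNA in the cluster 7 value was not tested.

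GPC5 was 0.20 in astrocytes, against -0.79 in oligodendrocytes and -1.59, -0.59 and -2.77 in clusters 6, 7 and 17. Its mean level was 178 CPM in oligodendrocytes and 241, 217 and 251 CPM in clusters 6, 7 and 17, beside 234 CPM in microglia. In oligodendrocytes its share is not read as expression, as given above. The part of free RNA in these lower values was not tested. HS3ST2 was 0.76 in GABAergic neurons and 0.82 in cluster 7, against -0.59 in cluster 6 and -1.64 in cluster 17. HS6ST3 was 0.39 in cluster 6 and 0.26 in cluster 12, against -0.57 in OPC, -0.61 in cluster 7 and -1.35 in cluster 17.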

How the results depend on the processing

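In cluster 10 the log2 fold change of HS3ST5 stayed between -2.26 and -1.85 and that of SULF2 between -1.43 and -1.23 under all 13 alternatives fitted there, and GPC6 in oligodendrocytes between -0.95 and -0.64 under 14, the last with clusters held by every library. In other glutamatergic clusters, added after the data were seen, HS3ST5 was -0.45, -1.08, -0.39 and -3.86 in clusters 6, 7, 12 and 17, the last from 1 and 0 UMIs so that it depends on the prior count, and SULF2 was -0.66, -0.46, 1.66 and -0.92 in clusters 6, 12, 17 and 19. The cause of these differences between clusters was not tested.

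Genes called over the 7 classes numbered 29, against 929 with no filter on low counts, 510 with DESeq2, 13 with doublets kept, 16 at resolution 0.5, 15 when clustered without heparan sulfate genes, and 3 to 48 with 1 library left out. In cluster 10 they numbered 91, against 748 with no filter, 262 with DESeq2 and 0 to 240 with 1 library left out. With a replicate block the counts were 1 and 36. Deviations of libraries with the same number correlated between -0.323 and 0.126, so the numbers were not read as pairs. Heparan sulfate genes called over the classes, the 8 included, were 9 with no filter and 6 with DESeq2, and those outside the 8 in cluster 10 were 3 and 1, and 0 to 1 with 1 library left out. Of the 8 genes in the 5 classes tested, 1 was called with no filter and 1 with DESeq2, and GPC6 in astrocytes had adjusted p values of 0.0160 to 0.816 over its alternatives.

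Without thinning, the differences in the share of cells with a UMI, sevoflurane minus oxygen, were -28.0 percentage points for HS3ST5 and -20.5 for SULF2 in cluster 10, and -11.2 and -13.7 for GPC6 in oligodendrocytes and astrocytes, against -10.9, -5.89, -7.96 and -7.99 at 1000 UMIs per cell.

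Some fold changes changed sign. The value of SULF1 in endothelial cells, -1.22, was far from 0 and the others were between -0.41 and 0.32. In endothelial cells HS3ST4 was 0.066 at resolution 0.5 and when clustered without heparan sulfate genes, and HS6ST3 was -0.14 with doublets kept. With 1 library left out, ranges that crossed 0 were -0.65 to 0.27 (SULF1), -0.18 to 0.021 (GPC5), -0.18 to 0.16 (GPC6) and -0.54 to 0.0039 (HS6ST3) in GABAergic neurons, -0.0010 to 0.12 (GPC5) in OPC, -1.17 to 0.12 (HS3ST5) and -1.05 to 0.15 (HS6ST3) in astrocytes, -1.13 to 0.30 (HS3ST4), -1.93 to 0.60 (SULF1), -0.0071 to 0.62 (SULF2) and -0.30 to 0.29 (HS6ST3) in endothelial cells, -0.61 to 0.037 (GPC5) and -0.52 to 0.33 (HS6ST3) in microglia, -0.40 to 0.51 (SULF1) and -0.81 to 0.029 (HS6ST3) in oligodendrocytes, -0.49 to 0.48 (HS3ST2) and -1.49 to 0.032 (GPC6) in glutamatergic neurons, and -0.55 to 0.083 (SULF1) in cluster 10.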
